A study of Mus musculus with 8 samples.

Results

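The immediate early response genes described here are Fos, Fosb, Jun, Junb, Egr1, Ier2, Atf3, Dusp1, Nr4a1 and Myc. They were chosen by name, and their probes were found on the arrays through RefSeq accessions. They are 10 of the 22911 genes that could be named on the array and 10 of the 16013 genes tested. Whole mouse kidneys at embryonic day 14.5 were compared between conditional mutants, in which Mdm4 was knocked out through a Hoxb7Cre transgene, and wild type embryos, with no further treatment given in the labels. Hoxb7 regulatory sequence drives Cre in the ureteric bud lineage, the future collecting duct system, while the arrays measured RNA of the whole organ, with nephron progenitors, stroma, vessels and blood cells included. In such bulk RNA, fewer cells of a type and less RNA per cell cannot be told apart. RNA of 4 mutant and 4 wild type kidney samples was compared in 4 pairs of 1 mutant and 1 wild type sample, each pair on 2 two-colour arrays with the dyes exchanged, 8 arrays in all. The labels do not say whether a sample is 1 embryo or a pool, so the p-values measure only the spread between these samples. In all of the 10 genes except Fosb and Junb, the mutant samples of pairs 2 and 3 lay closer together than their wild type partners. The share over all genes was not computed, so this cannot be called particular to the 10 genes. Whether the mutant samples of pairs 2 and 3 are independent of each other was not tested.

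Immediate early genes are transcribed soon after a growth factor, cytokine, stress or mechanical signal reaches a cell, without new protein synthesis. MAP kinases and calcium or cyclic AMP signals act on factors already bound at these promoters, among them serum response factor with its ternary complex partners and CREB. Fos and Fosb proteins pair with Jun and Junb proteins to form the AP-1 transcription factor. Mdm4 protein holds the transcription factor p53 in check, and Atf3 and Btg2 are among the immediate early genes that p53 can also induce.

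The promoters of Fos, Dusp1 and Nr4a1 are shown because, of the 10 genes, these had the largest ratios in either direction in the pair that stood apart, pair 4 below. Each is the 250 bases before the annotated start of transcription from RefSeq on build GRCm38.p6, 5′ to 3′ on the gene's own strand, with matches to the cyclic AMP response element TGACGTCA, its core TGACG and the TATA box TATAAA in capitals. The Fos sequence is chr12:85473640-85473889 on the plus strand, the Dusp1 sequence is chr17:26508473-26508722 on the minus strand and the Nr4a1 sequence is chr15:101266596-101266845 on the plus strand.
Fos: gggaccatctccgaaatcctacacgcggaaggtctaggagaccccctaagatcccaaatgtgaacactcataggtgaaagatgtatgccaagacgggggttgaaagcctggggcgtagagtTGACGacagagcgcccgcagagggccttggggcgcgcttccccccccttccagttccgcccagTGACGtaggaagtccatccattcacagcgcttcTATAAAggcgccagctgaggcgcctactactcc
Dusp1: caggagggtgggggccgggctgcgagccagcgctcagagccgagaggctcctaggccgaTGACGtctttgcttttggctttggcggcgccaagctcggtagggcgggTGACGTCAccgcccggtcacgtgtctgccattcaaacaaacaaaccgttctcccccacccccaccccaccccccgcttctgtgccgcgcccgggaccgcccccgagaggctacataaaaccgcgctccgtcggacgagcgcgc
Nr4a1: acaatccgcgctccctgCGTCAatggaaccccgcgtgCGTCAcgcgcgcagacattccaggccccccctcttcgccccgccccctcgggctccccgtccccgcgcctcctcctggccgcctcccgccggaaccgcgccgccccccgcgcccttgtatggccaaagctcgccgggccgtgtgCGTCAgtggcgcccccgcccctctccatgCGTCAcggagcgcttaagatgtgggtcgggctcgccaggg

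Windows from 250 bases before to 50 bases after the start were found for 7 of the 10 genes, namely Fos, Fosb, Jun, Junb, Atf3, Dusp1 and Nr4a1. On either strand, 6 of these 7 held the core TGACG, Jun being the exception, against 20.8% of all 32851 RefSeq promoter windows of that length. The full element TGACGTCA, which overlaps the core, stood in the Dusp1 window alone of the 7, from -143 to -136 relative to the start, and in 1.79% of all windows. Nr4a1 held 4 copies of the core, all on the minus strand, and Fos held 2. The TATA box sequence TATAAA was present in 2 of the 7 (Fos, from -33 to -28, and Junb, from 1 to 6) and in 13.6% of all windows. The Junb match lies at the annotated start itself and not before it, so it is counted as a sequence match only. No match to the CArG box of serum response factor, to the AP-1 site TGANTCA or to the p53 half-site (each searched on both strands) lay in the 7 windows, where 1.63%, 7.81% and 8.36% of all windows held them. Sites farther upstream, and sites that differ from these patterns, were not searched, so the genes may still hold such sites. The windows of these genes had 58.7% to 72.3% G or C, above the median of 52.7% over all windows, and the effect of base composition on the matches was not tested.

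**Figure D1:**
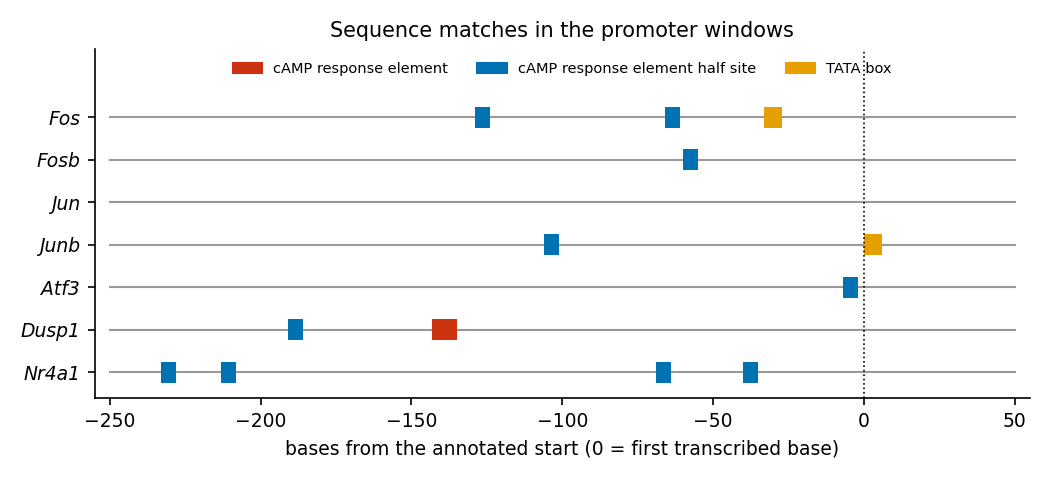
Positions of sequence matches in the 7 promoter windows, in bases from the annotated start (x axis), 1 gene a row. Blue blocks are copies of the core of the cyclic AMP response element, the red block is the full element in Dusp1 and orange blocks are matches to TATAAA. Nr4a1 has 4 blue blocks and Jun none.

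Kidney markers fixed for a check of the tissue, such as Pax2, Six2 and Wt1, were well above background in all 16 channels for 16 of 16 genes. So were 14911 of all 16013 genes tested and 6 of 6 tested adrenal cortex genes, so this count does not identify the tissue. In a channel, between 60.7% and 70.2% of spots cleared the background, and 0 spots were saturated. The deposited labels give no probe position for Mdm4 relative to the deleted exons; its brightest probe read -0.03, -0.06, -0.28 and -0.35 in pairs 1 to 4 (log2 ratio, mutant over wild type; mean -0.18 ± 0.07 SE, adjusted p = 0.471), so it does not check the knockout. The Y-linked gene Eif2s3y was at 3.91, 2.26, -2.02 and 4.09 and the X-inactivation transcript Xist at -2.71, -0.23, 2.48 and -2.80, so sex-linked transcripts differed within pairs. Pair 4 stood apart, with 141 genes past 2-fold higher and 155 past 2-fold lower. The other 3 pairs had 13 to 52 higher and 31 to 45 lower. In pair 4, 6 of the 9 tested neutrophil and acute-phase genes, Saa3 included, were past 2-fold higher. These 9 genes had mean log2 ratios of 0.27, 0.15, 0.20 and 2.49 in pairs 1 to 4. Saa3 was among them through the mutant channels alone (7 of 8 above background, against 5 of 8 with wild type RNA), and without it the 4 means were 0.29, 0.16, 0.20 and 2.35. Cxcl1, a chemokine that attracts neutrophils, had log2 levels of 7.51, 7.60, 7.58 and 13.89 in mutant and 7.69, 7.59, 7.39 and 9.38 in wild type samples of pairs 1 to 4. Cxcl1 was thus highest in pair 4 in both genotypes, and by far the highest in its mutant sample. The mean ratio of each of the 10 genes is therefore also given without pair 4.

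The 10 genes were all measurable in these kidneys, and no difference between mutant and wild type kidneys passed the test for any of them. Each was well above background in 16 of 16 channels on the probe used. The test was limma on the log2 ratios of the 4 pairs against 0, with Benjamini-Hochberg adjustment over 16013 genes and a threshold of 0.05. It called 0 of the 10 genes and 0 of all genes (0%), with a smallest adjusted p of 0.0750 among all genes. At an unadjusted p under 0.05 there was 1 of the 10, Myc, against 10.6% of all genes. The adjusted p of the 10 genes ran between 0.430 for Myc and 0.996 for Ier2.

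The ratios were small. The mean log2 ratio over the 10 genes was 0.07, and their median was 0.07 beside 0.01 over all genes. The mean ratio was above 0 for 7 of 10, against 53.9% of all genes. Atf3, Dusp1 and Myc were above 0 in all 4 pairs, 3 of 10 genes against 12.1% of all genes, and 0 of 10 were below 0 in all 4, against 7.84%. These are signs of pair means, and for Dusp1 and Atf3, and for Myc in pair 4, some came from arrays of opposite sign. The same 3 and 0 were counted over pairs 1 to 3 alone, against 2671 and 1921 of all 16013 genes. Pair by pair, the mean over the 10 genes was 0.03, 0.0051, 0.07 and 0.17 in pairs 1 to 4, and without pair 4 it was 0.03. No ratio of any of the 10 genes reached 2-fold in any pair.

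**Figure D2:**
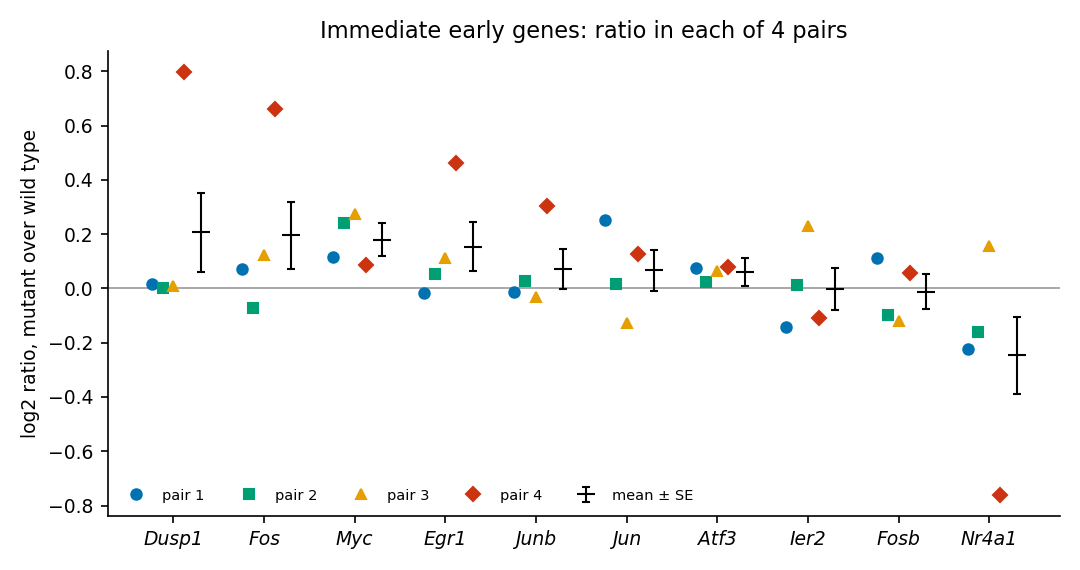
Log2 ratio of mutant over wild type (y axis) of each of the 10 genes in each of the 4 pairs (coloured symbols, each the mean of 2 dye-swapped arrays), with the mean and its limma standard error in black, in order of the mean. Dusp1, Fos and Egr1 lie highest and Nr4a1 lowest in pair 4, whereas the 4 Myc values lie between 0.09 and 0.27.

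Dusp1 encodes a phosphatase that switches off MAP kinases, and it was the gene in which pair 4 differed most from the rest. Its log2 level was 10.64, 10.70, 10.64 and 11.45 in the mutant samples of pairs 1 to 4, against 10.63, 10.70, 10.63 and 10.65 in the wild type samples. The mutant sample of pair 4 was above all 7 other samples, which lay within 10.63 to 10.70. Its log2 ratio was 0.02, 0.0035, 0.0082 and 0.80, which is 1.74-fold in pair 4. The mean of 0.21 ± 0.15 (SE, n = 4 pairs) gave an adjusted p of 0.627, and the mean was 0.0099 without pair 4 and 0.07 with the Eif2s3y difference as a covariate. The values near 0 in pairs 1 to 3 were means of arrays of opposite sign, at 0.24, 0.15 and 0.32 with mutant RNA in Cy5 and at -0.20, -0.14 and -0.30 with mutant RNA in Cy3. In pair 4 both arrays were above 0, at 1.09 and 0.51.

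Among the AP-1 subunits, Fos had log2 levels of 8.083, 7.974, 7.997 and 8.312 in mutant samples and 8.011, 8.046, 7.874 and 7.650 in wild type samples. The 2 samples of pair 4 were the highest mutant and the lowest wild type sample, and the genotypes overlapped. Its ratio was 0.07, -0.07, 0.12 and 0.66, with a mean of 0.20 ± 0.12 (adjusted p = 0.588), and 0.04 without pair 4. The pair 4 ratio was 1.58-fold and was above 0 on both arrays, at 0.45 with mutant RNA in Cy5 and 0.88 in Cy3. Junb, a Fos partner, had levels of 10.79, 10.80, 10.72 and 10.78 in mutant samples and 10.81, 10.77, 10.76 and 10.48 in wild type samples. Here the pair 4 ratio of 0.30 came with a low wild type sample, since the mutant samples lay within 10.72 to 10.80. The mean ratio of Junb was 0.07 ± 0.07 (adjusted p = 0.737), and -0.0063 without pair 4.

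Jun, the other main partner of Fos, had levels of 13.58, 13.36, 13.43 and 13.48 in mutant samples and 13.32, 13.34, 13.56 and 13.35 in wild type samples. The genotypes overlapped, and the wild type sample of pair 3 lay above the other 3. Its ratio was 0.25, 0.02, -0.13 and 0.13, with a mean of 0.07 ± 0.08 (adjusted p = 0.756), and 0.05 without pair 4. Fosb, which lies in the same family as Fos, had levels of 7.05, 7.07, 6.99 and 7.02 in mutant samples and 6.94, 7.17, 7.11 and 6.97 in wild type samples. Fosb had a mean ratio of -0.01 ± 0.06 (adjusted p = 0.957), above 0 in pairs 1 and 4 and below 0 in pairs 2 and 3, and the mean without pair 4 was -0.03. Atf3, a related leucine zipper protein that also answers stress signals and p53, had levels of 8.80, 8.65, 8.45 and 8.50 in mutant samples and 8.72, 8.62, 8.39 and 8.42 in wild type samples. Within every pair the mutant sample was the higher, by 0.07, 0.02, 0.07 and 0.08, while the samples of either genotype spread over a wider range than that. The arrays of Atf3 had opposite signs in pair 2, at 0.08 with mutant RNA in Cy5 and -0.03 in Cy3, and in pair 4, at 0.30 and -0.14. The mean of Atf3 was 0.06 ± 0.05 (adjusted p = 0.679), and 0.05 without pair 4. Its pair means had an SD of 0.03, smaller than for all but 0.856% of the genes tested, whereas those of Dusp1, Nr4a1 and Fos were at the 94.9th, 94.4th and 91.0th percentile.

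Egr1 encodes a zinc finger transcription factor that answers growth factors. Its levels were 11.41, 11.40, 11.42 and 11.61 in mutant samples and 11.43, 11.34, 11.30 and 11.15 in wild type samples. In pair 4 the mutant sample was the highest and the wild type sample the lowest of its genotype. The ratio was -0.02, 0.05, 0.11 and 0.46, with a mean of 0.15 ± 0.09 (adjusted p = 0.568), and 0.05 without pair 4. Ier2, a nuclear protein induced by growth factors, had levels of 11.64, 11.83, 11.82 and 11.52 in mutant samples and 11.78, 11.82, 11.59 and 11.63 in wild type samples. Ier2 did not follow Fos in pair 4, where it was at -0.11, and its mean was -0.0015 ± 0.08 (adjusted p = 0.996), and 0.03 without pair 4.

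Nr4a1, an orphan nuclear receptor, ran the other way in pair 4. Its levels were 10.772, 10.992, 11.001 and 10.417 in mutant samples and 10.994, 11.151, 10.843 and 11.176 in wild type samples. The mutant sample of pair 4 was the lowest of all 8 and its wild type partner the highest. The ratio was -0.22, -0.16, 0.16 and -0.76, so that Nr4a1 in pair 4 was 1.69-fold higher in the wild type sample. The mean was -0.25 ± 0.14 (adjusted p = 0.566), -0.07 without pair 4 and -0.02 with the Eif2s3y difference as a covariate. Both arrays of pair 4 were below 0, at -0.63 with mutant RNA in Cy5 and -0.89 in Cy3. Of the related receptors on the list of further immediate early genes, Nr4a3 was at -0.05, -0.02, -0.0071 and -0.15 and Nr4a2 at -0.25, -0.05, 0.03 and -0.26. Their adjusted p of 0.717 and 0.551 did not pass the test either.

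Myc encodes a transcription factor of growth and ribosome production that binds DNA with its partner Max. It had the smallest p of the 10 genes. Its levels were 12.10, 12.10, 12.05 and 12.06 in mutant samples and 11.98, 11.86, 11.78 and 11.97 in wild type samples. All 4 mutant samples lay above all 4 wild type samples, which held for 1 of the 10 genes against 3.26% of all genes, and the reverse held for 0 of the 10 against 1.59%. The ratio was 0.12, 0.24, 0.27 and 0.09, with a mean of 0.18 ± 0.06 (1.13-fold, 95% interval 0.03 to 0.33). Its unadjusted p was 0.0237 and its adjusted p 0.430, so it did not pass over all genes, and without pair 4 the mean was 0.21. A second, dimmer Myc probe was at 0.07, 0.11, 0.17 and -0.16, with a mean of 0.05, and on it the genotypes overlapped. The dye orientations of the brighter probe had means of 0.14 with mutant RNA in Cy5 and 0.22 in Cy3, but in pair 4 its arrays had opposite signs, at -0.16 and 0.33.

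**Figure D3:**
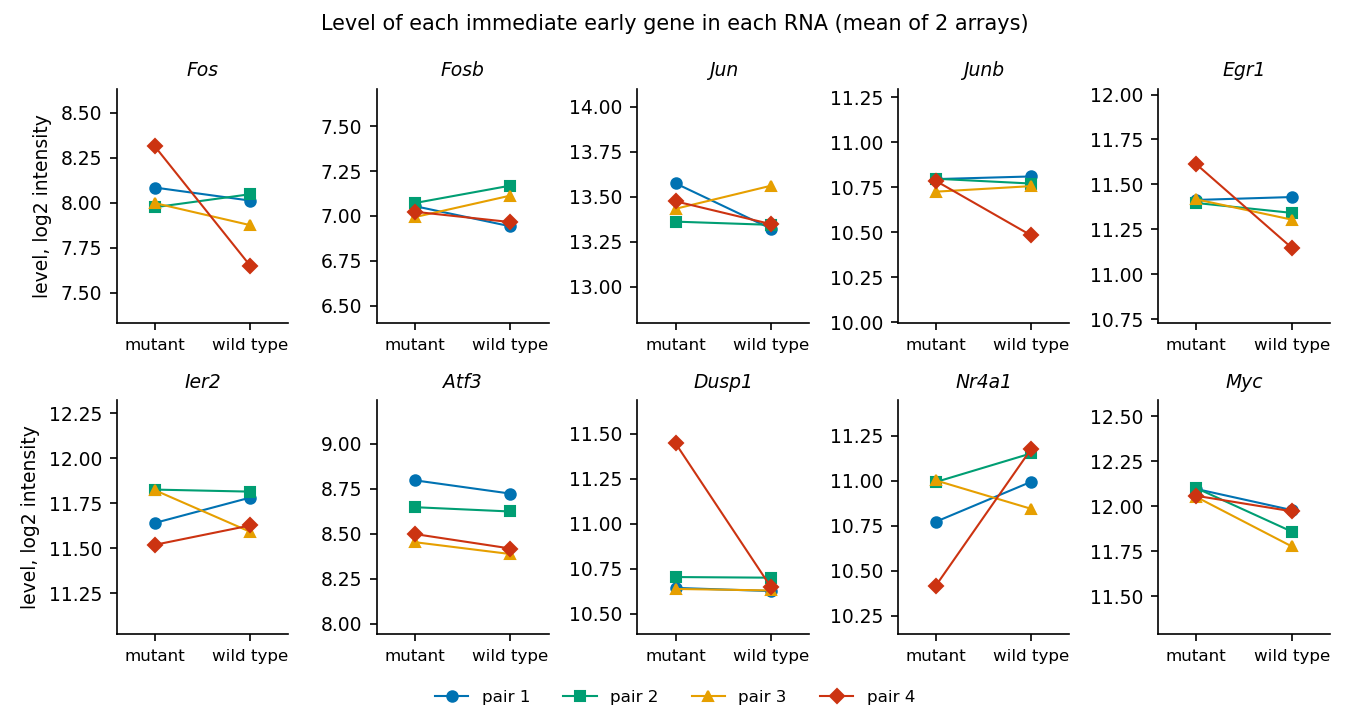
Log2 intensity (y axis) of each of the 10 genes in the mutant sample and the wild type sample of each pair (mean of 2 arrays, lines join a pair); every panel spans the same range of log2 units, and levels of different genes come from different probes and are not comparable. Only for Myc do all 4 mutant samples lie above all 4 wild type samples, and Dusp1 and Nr4a1 show the steepest lines in pair 4.

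Fosb and Junb each had a second probe, of which the Fosb probe was well above background in 0 of 16 channels and the Junb probe in 3 channels with mutant RNA and 1 with wild type RNA. In all 13 probes were found for the 10 genes, and 11 passed the filter on dim probes.

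The mean ratios with mutant RNA in Cy5 and in Cy3 had opposite signs for 6 of the 10 genes, against 51.3% of all genes. The median absolute gap between the orientations was 0.29 over the 10 genes, beside 0.15 over all genes. The gap was below that 0.15 for 3 of the 10, at 0.04 for Fosb, 0.08 for Myc and 0.12 for Atf3, in size. Jun had the widest gap of the 10, with a mean of -0.19 with mutant RNA in Cy5 and 0.33 in Cy3. Dusp1 followed, at 0.45 and -0.03, and Junb was at 0.28 and -0.14. Egr1 was at 0.31 and -0.0025, Ier2 at -0.16 and 0.15, and Fos at 0.06 and 0.33. Averaging the 2 arrays of a pair cancels a dye effect only where it is equal in size and opposite in sign on them. That was not tested, and the paired means above carry that average.

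**Figure D4:**
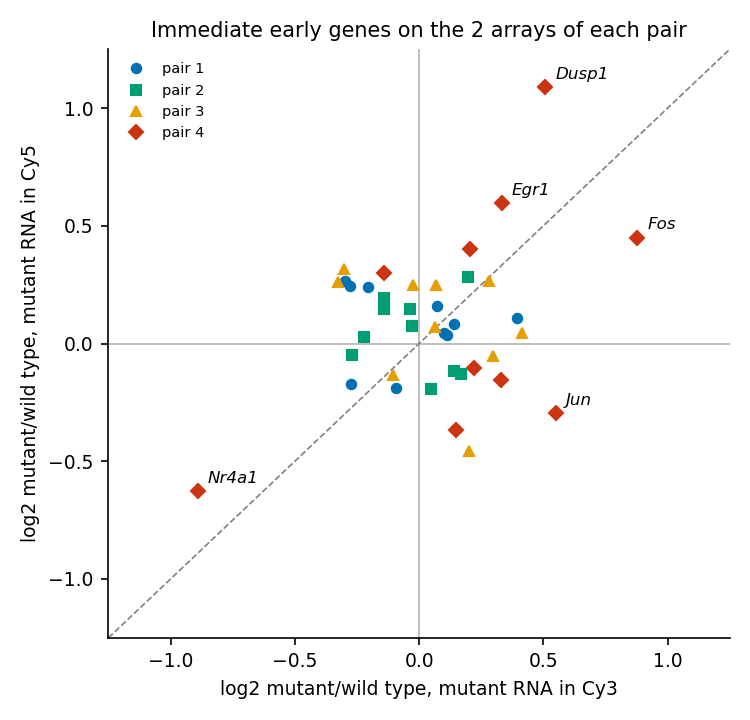
Log2 ratio of mutant over wild type of the 10 genes on the array with mutant RNA in Cy5 (y axis) against the array of the same pair with mutant RNA in Cy3 (x axis), 1 symbol per gene and pair; the dashed line marks equal values. Dusp1, Fos, Egr1 and Nr4a1 in pair 4 have the same sign on both arrays, whereas Jun in pair 4 lies at -0.30 and 0.55.

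Pair 4 had the largest absolute ratio of the 4 pairs for 6 of the 10 genes (Fos, Junb, Egr1, Atf3, Dusp1 and Nr4a1), against 44.6% of all genes. In pair 4, 0.881% of all genes were past 2-fold higher and 0.968% past 2-fold lower, and none of the 10. Beside them the acute-phase genes in pair 4 were at 5.53 for the chemokine Ccl20, 4.51 for Cxcl1, 3.88 and 3.05 for the neutrophil proteins S100a9 and S100a8, 3.58 for Saa3 and 2.07 for Lcn2. The neutrophil granule genes Mpo, Elane and Camp were at 0.03, -0.25 and -0.01 in pair 4. The summed level of the 9 tested genes (linear intensity) ran between 1813 and 48320 in mutant and between 1647 and 5389 in wild type samples. Pair 4 was highest in both genotypes, and 6 of 9 genes were well above background in all 16 channels. Without Saa3 the sums ran between 1693 and 44067 in mutant and between 1538 and 5035 in wild type samples. Of the 16 genes of that list, Cxcl2, Cxcl5, Il1b, Il6, Ltf, Ly6g and Ngp were not tested. Macrophage markers were above 0 on average for 14 of 14 genes, against 53.9% of all genes. Their pair means were 0.41, 0.04, 0.16 and 0.35, and their summed levels were 13988 to 20095 in mutant and 11953 to 15036 in wild type samples. What these cells or genes contribute to the ratios of the 10 genes was not tested.

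**Figure D5:**
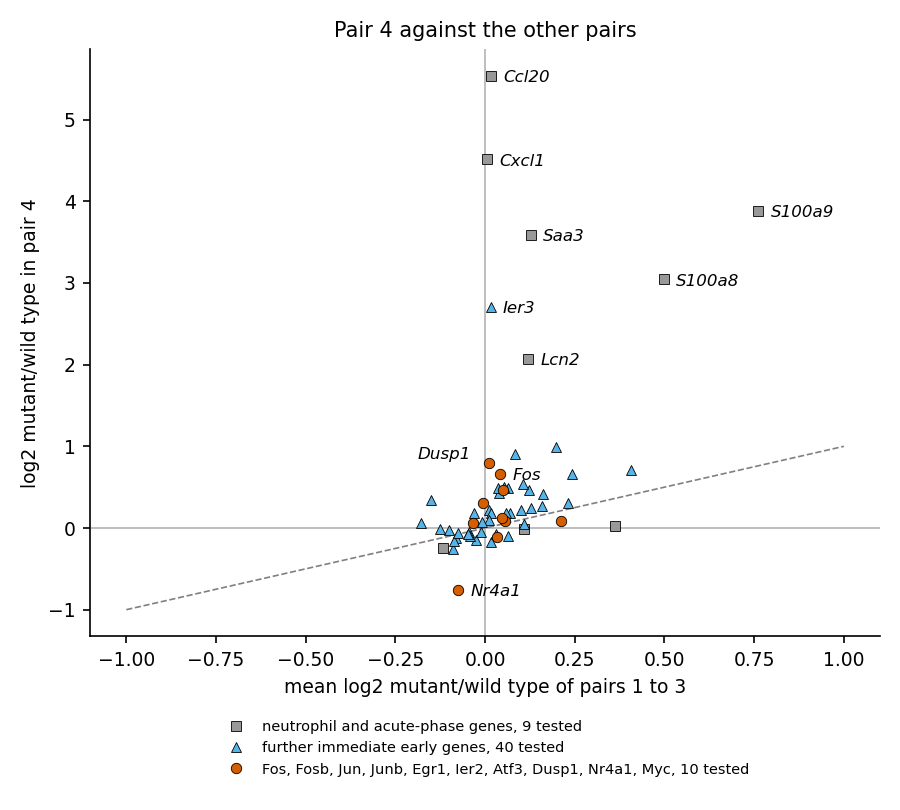
Log2 ratio of mutant over wild type in pair 4 (y axis) against the mean of pairs 1 to 3 (x axis), for the 10 genes (orange circles), 40 further immediate early genes (blue triangles) and 9 neutrophil and acute-phase genes (grey squares); the axes have different scales and the dashed line marks equal values. Ccl20 and Cxcl1 lie above 4.5 in pair 4 and near 0 in the others, Ier3 lies at 2.70, and Dusp1 and Fos lie at 0.80 and 0.66.

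Other genes of the same early response were read from a list of 43, of which 40 were tested. None was called. A mean above 0 was found for 26, against 53.9% of all genes, and 14 were below. An unadjusted p under 0.05 was found for 5, against 10.6% of all genes. The same shares over all genes stand beside the counts of every list below. In all 4 pairs 8 were higher, against the 12.1% of all genes given above (Btg2, Ccn2, Klf2, Klf6, Nfkbiz, Ptgs2, Zfp36l1 and Zfp36l2) and 4 lower, against 7.84% (Ier5l, Trib1, Nr4a3 and Gadd45g). Ptgs2 passed the filter on dim probes through the mutant channels alone; without it 7 of 39 were higher in all pairs and 4 had an unadjusted p under 0.05. The list's mean was 0.09 and its median 0.06, with pair means of 0.0083, 0.01, 0.09 and 0.26, and the mean without pair 4 was 0.04. Btg2, an antiproliferative gene that also stands on the p53 target list, was at 0.26, 0.12, 0.32 and 0.30 (mean 0.25 ± 0.06, adjusted p = 0.397). Ccn2, a matricellular growth factor, was at 0.26, 0.05, 0.41 and 0.66 (mean 0.34 ± 0.10, adjusted p = 0.411). The zinc finger factor Klf4 was at 0.80, 0.47, -0.05 and 0.71 (mean 0.48 ± 0.14, adjusted p = 0.411). Of these, Btg2 was the most even over the pairs, and Klf4 was below 0 in pair 3. Ptgs2, which makes prostaglandins, was at 0.03, 0.22, 0.34 and 0.99, and its probe cleared the background in only 5 of the 8 channels with wild type RNA. Nfkbiz, a nuclear regulator of NF-kB, was at 0.03, 0.08, 0.15 and 0.91. Ier3, named after its values were seen, had levels of 8.10, 7.89, 7.85 and 10.68 in mutant samples and 7.95, 8.15, 7.70 and 7.98 in wild type samples, so that its ratio of 2.70 in pair 4 lay in the mutant sample. Egr3, Egr4 and Fosl1 did not pass the filter on dim probes.

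Upstream of the early response, a list of 21 MAP kinases, kinase targets and cofactors had 12 genes with a mean above 0 and 9 below, 0 called (1 with an unadjusted p under 0.05), and a median of 0.02. The kinase gene Rps6ka3, named after its values were seen, was at 0.04, 0.03, 0.45 and -3.43 (adjusted p = 0.683). Elk4, a ternary complex factor that works with serum response factor, was at 0.04, -0.22, -0.34 and -0.42 (mean -0.23 ± 0.09, adjusted p = 0.451). The JNK kinase gene Mapk9 was above 0 in all 4 pairs, with a mean of 0.12 ± 0.05 (adjusted p = 0.492). Among 15 feedback inhibitors of MAP kinase signalling, 8 were above 0 and 7 below, 0 were called (1 with an unadjusted p under 0.05), and the median was 0.0052. Dusp4, a nuclear MAP kinase phosphatase related to Dusp1, had levels of 9.29, 9.31, 9.20 and 8.75 in mutant samples and 9.48, 9.40, 9.41 and 9.26 in wild type samples. Its ratio was -0.19, -0.08, -0.21 and -0.51, opposite in sign to Dusp1 in pair 4 (mean -0.25 ± 0.08, adjusted p = 0.425).

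Leucine zipper factors that can pair with AP-1 subunits numbered 13 tested, with 8 above 0 and 5 below, 0 called (1 with an unadjusted p under 0.05) and a median of 0.08. Maf was at 0.43, 0.10, 0.14 and 0.72 (mean 0.35 ± 0.11, adjusted p = 0.425). Cebpd, an acute-phase transcription factor, was at 0.30, 0.07, 0.09 and 1.21 (mean 0.42 ± 0.19, adjusted p = 0.506). Of 11 genes of the Myc network, 4 were above 0 and 7 below, 0 were called (2 with an unadjusted p under 0.05), and the median was -0.06. Max itself was at -0.15, -0.15, -0.18 and -0.12 (mean -0.15 ± 0.05, adjusted p = 0.441), below 0 in all 4 pairs. The Myc target list, mostly nucleolar and metabolic genes, had 2 of 12 above 0 and 10 below, with 0 called (1 with an unadjusted p under 0.05) and a median of -0.05. Its nucleolar gene Fbl was at -0.10, -0.20, -0.32 and -0.21 (mean -0.21 ± 0.06, adjusted p = 0.406). A list of 16 p53 targets had 15 above 0 and 1 below, a median of 0.44 and 0 called (11 with an unadjusted p under 0.05), and shares Btg2 and Plk2 with the further immediate early genes. Heat shock genes were 6 above 0 and 6 below of 12, with a median of -0.01, and hypoxia genes 6 and 6 of 12, with a median of 0.00034, and none of either list had an unadjusted p under 0.05.

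The genes whose pattern over the 8 arrays was most like that of Fos were Slc5a9, Dffa, Serpinh1, Zfp185, Morrbid and Plxna2. The measure was the root mean square difference of the log2 ratios, which was between 0.07 and 0.12 for these 6 genes and 0.41 for the median gene. The pair 4 ratio of these 6 lay between 0.51 and 0.72, beside 0.66 for Fos. Of the other 9 genes described here, Egr1 was closest to Fos, at 0.32, and Nr4a1 farthest, at 0.77. All of these values share the same 8 arrays and the sample pair that stood apart.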

How the data were processed

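The authors scanned the arrays and deposited scanner output with median spot and background intensity per dye and a log10 ratio of Cy5 over Cy3; the software was Agilent Feature Extraction, version 8.5.1.1 per the submitters' processing notes and version 10.7.3.1 per the file headers. A deposited series table of log ratios differed from the scanner log10 ratios by less than 0.005. From the deposited intensity, limma 3.58.1 in R 4.3.3 was used: normexp with offset 50, loess within arrays (3671 control spots and 95 to 156 outlier spots per array left out), replicate spots averaged, every ratio set as mutant over wild type, and the 2 arrays of a pair averaged. The authors gave no log2 values; log2 ratios and, after Aquantile, log2 levels per sample were computed here. Probes were named by unversioned RefSeq accession (32994 of 56605). Probes well above background in at least 6 of 8 channels of a genotype were kept (34594), and the brightest per gene was tested (16013 genes, 5916 of them with several kept probes). The fit was lmFit and eBayes against 0 over 4 pairs, two-sided; an exact sign-flip test of 4 pairs cannot go below 0.125. Arrays have no depth, and the number of sample pairs limits the precision. The fit was tested on simulated data.

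The genes described and all gene lists were chosen with earlier results of these data known. Of each further list, up to 4 tested genes with the smallest p could be named, and any further immediate early gene with the same sign in all pairs. Alternatives were other background corrections, normalizations, filters and probe choices, the deposited table, each dye orientation, a sex-linked covariate, a dye coefficient with pair as a block, and leaving out each pair. ETS motifs beside CArG boxes were not counted, since no window of these genes held a CArG box. Promoter windows of Egr1, Ier2 and Myc and protein sequences were not used here.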

Additional observations from a re-analysis of the deposited data

Results flagged for a closer look

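Dixon's criterion was put to 30 groups of 4 values, the mutant levels, wild type levels and ratios of the 10 genes. A value far from the other 3 was held by 6 groups, where chance gives about 1 in 20. The share over all genes was not computed, so these 6 cannot be called an excess particular to the 10 genes. The groups are not independent either, since each ratio is taken from the levels of the same gene. In Dusp1 the log2 ratio of pair 4 was 0.798, the other 3 lying within 0.0035 to 0.018, and the mutant level of pair 4 was 11.4461, the other mutant samples lying within 10.6368 to 10.703. In Egr1 the mutant level of pair 4 was 11.6125, above the other mutant samples at 11.3972 to 11.4173. In Junb the wild type level of pair 4 was 10.481, below the other wild type samples at 10.7553 to 10.809, and the mutant level of pair 3 was 10.7244, just below 10.7841 to 10.7963 in the other mutant samples. In Jun the wild type level of pair 3 was 13.562, above the other wild type samples at 13.3241 to 13.3489. Of the 6 values, 4 belong to pair 4, among them both the mutant level and the ratio of Dusp1. Over all genes, pair 4 had the largest absolute ratio of the 4 pairs for 44.6%. A link to the high acute-phase genes in both samples of pair 4 was not tested.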

How the results depend on the processing

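None of the 10 genes was called under any of the 16 alternatives. Over all genes, 42 were called with median centring in place of loess (42 higher, 0 lower), which put the median of all genes at 0.14 and the mean of the 10 genes at 0.19. With all 8 arrays fitted singly, with a term for the dye and a random replicate block for the pair, 45 were called (43 higher, 2 lower). Leaving out each pair gave means of the 10 genes between 0.03 and 0.09 and called 0 genes each time. Of 160 recomputed ratios of the 10 genes, 16 changed sign, none of them called, and the cause was not tested. On arrays with mutant RNA in Cy3 alone, Fosb was at 0.0086, Junb at -0.14, Egr1 at -0.0025, Ier2 at 0.15 and Dusp1 at -0.035, and on those with mutant RNA in Cy5 alone Jun was at -0.19. With the Eif2s3y difference as a covariate Jun was at -0.039 and Ier2 at 0.12, and without a change of sign Nr4a1 was at -0.022, Dusp1 at 0.069, Fos at 0.11, Junb at 0.0098 and Fosb at -0.079. With median centring, whose shift of all genes is given above, Dusp1 was at 0.36, Myc at 0.34, Egr1 at 0.32, Jun at 0.24, Junb at 0.23 and Nr4a1 at -0.09, and with the median over its probes Myc was at 0.11. With the deposited table Fosb was at 0.025 and Ier2 at 0.025, and with median centring Ier2 was at 0.16. Leaving out a pair put Fosb between -0.053 and 0.024, Junb between -0.0063 and 0.11, and Ier2 between -0.079 and 0.045. The counts without Ptgs2 and the means and sums without Saa3 were added after the data were seen. Without pair 4, also counted then, 9 further immediate early genes were higher and 5 lower in the other 3 pairs. Precision is limited by 4 pairs.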

Other observations

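The mutant samples of pairs 2 and 3 held both Xist and Y-linked transcripts at intermediate or high levels. Eif2s3y was at 10.59, 8.70, 8.56 and 10.86 (log2 intensity) in the mutant samples of pairs 1 to 4 and at 6.68, 6.44, 10.58 and 6.76 in the wild type samples. Xist was at 6.97, 9.57, 9.46 and 7.44 in the mutant samples and at 9.68, 9.80, 6.98 and 10.24 in the wild type samples. The samples of neither genotype were therefore all of one sex pattern, and how these levels arose was not tested.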
